A study of Homo sapiens with 35 samples.

Results

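The interferon response genes are genes that cells switch on when they sense type I interferon or foreign nucleic acid. Here they are the 40 genes of a named list, found by gene symbol among the 60665 genes of a count table. The table came from total RNA sequencing of HEK293T, a widely used cell line derived from human embryonic kidney. The 35 libraries asked what happens to transcription when INTS13, a subunit of the Integrator complex that cleaves nascent RNA, or 1 of 8 proteins studied with it is depleted. Cells were treated at 5 nM with a siPOOL, which is a mixture of many small interfering RNAs that share 1 target transcript, for 72 h with 2 transfections, and each depletion was compared with cells that received a control siPOOL in the same way. Starved cells were compared with fed cells of the same siPOOL. In the first set, libraries numbered 1 and 2 in the labels, the targets were TSPYL2, ZEB1, ZNF608, ZNF609 and ZNF687 (n = 2 each) beside 3 controls (1a, 1b and 2). In the second set, libraries numbered 3 and 4, the targets were INTS13, HDGF and ZNF655 (n = 2 each) beside 4 controls (3a, 3b, 4a and 4b), and control (n = 4), INTS13-depleted (n = 2) and HDGF-depleted (n = 2) cells were also kept without glucose for the last 24 h. ZMYND8 depletion (n = 2) had 2 controls of its own. ZNF655 was placed in the second set by its replicate numbers alone, 3 and 4, which the ZMYND8 libraries and their controls also carry. No label named the controls of ZNF655, so its libraries were compared with controls 3a to 4b and, side by side, with the controls labelled for ZMYND8. All libraries come from 1 cell line, and whether replicates came from separate cultures is not stated, so the p-values reflect only how far these libraries vary, which may be technical variation.

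In an interferon response, RNA sensors such as MDA5 (encoded by IFIH1) and RIG-I (DDX58) signal through the adaptor MAVS and the factor IRF3 to produce interferon. Interferon binds its receptors and activates the kinases JAK1 and TYK2, which activate a factor containing STAT2 and IRF9 that binds interferon-stimulated response elements in promoters. The genes it switches on include antiviral effectors (the IFIT and IFITM families, oligoadenylate synthetases, protein kinase R), the ubiquitin-like protein ISG15 with its enzymes, and the sensors and signalling factors themselves.

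The promoters of the genes that the results below turn on are shown first, since the element is what the family is known to share. The RefSeq promoter table (GRCh38.p14, 250 bases before to 50 bases after each start site) held 34 of the 40 genes, DDX58 under its newer symbol RIGI. The core of the element was searched as GAAA, any 2 bases and GAAA again, or, for the other strand, TTTC, any 2 bases and TTTC. It was found in 23 of the 34 genes (67.6%), against 4.38% of all 27305 genes in the table. Among the genes measured well enough to test, 19 of 27 held it, and among those too low to test, 4 of 7. No match was found in this window for CMPK2, DDX58, HERC6, IFI35, IRF1, IRF9, OAS1, SAMD9L, STAT2, UBE2L6 and XAF1. Both 250-base stretches before the start site that follow hold matches, in capitals. The first belongs to LGALS3BP, the gene called most often (chr17:78979924-78980173, minus strand), and the second to IFIT1, which fell in starved cells (chr10:89392373-89392622, plus strand).
LGALS3BP: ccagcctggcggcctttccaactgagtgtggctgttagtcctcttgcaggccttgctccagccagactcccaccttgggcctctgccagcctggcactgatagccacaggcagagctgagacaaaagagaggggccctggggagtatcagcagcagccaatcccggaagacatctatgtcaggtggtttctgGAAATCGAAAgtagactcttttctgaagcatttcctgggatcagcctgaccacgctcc
IFIT1: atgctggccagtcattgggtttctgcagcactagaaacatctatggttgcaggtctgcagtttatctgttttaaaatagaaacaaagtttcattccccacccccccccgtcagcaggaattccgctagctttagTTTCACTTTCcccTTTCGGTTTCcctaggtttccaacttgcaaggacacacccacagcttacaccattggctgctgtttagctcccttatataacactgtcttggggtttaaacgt

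The windows of 30 bases below, each 5′ to 3′ on the strand of its gene, hold the first match in the promoters of other genes that changed, again in capitals. They lie at chr13:42992272-42992301 (EPSTI1, minus strand), chr12:112938321-112938350 (OAS3, plus), chr2:162318824-162318853 (IFIH1, minus), chr7:93118096-93118125 (SAMD9, minus), chr1:1013374-1013403 (ISG15, plus) and chr1:78620274-78620303 (IFI44L, plus). PARP9 and DTX3L are divergent neighbours whose transcripts share 240 bases, and 1 match, at chr3:122564332-122564341 within the window chr3:122564322-122564351, lies in the promoters of both. It is shown on the minus strand, that of PARP9.
EPSTI1: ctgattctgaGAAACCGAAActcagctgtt
OAS3: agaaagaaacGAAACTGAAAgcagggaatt
IFIH1: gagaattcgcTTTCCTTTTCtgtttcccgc
SAMD9: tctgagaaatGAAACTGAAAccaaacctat
ISG15: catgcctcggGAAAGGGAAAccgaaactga
IFI44L: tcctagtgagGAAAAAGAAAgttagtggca
PARP9: gggcgcaaagTTTCAGTTTCgcttccctgg
The letters alone do not show that a factor binds. Matches were found among genes that rose, genes that fell and genes too low to test, but not in every gene of these groups. Some tested genes that were never called, such as IFI6 and IFI27, held matches too.

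Libraries held 16.8 to 50.8 M counts, with 27.8 to 50.8 M in the first set and 16.8 to 28.9 M in the others. Each siPOOL lowered its target, to between 8.36% (HDGF) and 56.1% (ZNF608) of control, with edgeR adjusted p from 4.80e-20 to 0.0114. In the first set the libraries numbered 1 stood apart: counts of ribosomal protein genes took 13.3% of control 1a against 8.92% and 8.94% of controls 1b and 2, and 16.8% against 9.23% of the ZEB1 libraries. The 5 marker genes of this line were present in all libraries (LIN28B from 137 to 267 CPM, VIM from 317 to 699). PAX2 was the lowest of them, at 0.317 to 1.86 CPM. Of the fibroblast markers, COL1A1 had 38 to 284 counts, COL3A1 2 to 75 and LUM 0 to 71. COL1A2 had at most 1 count and DCN at most 5. Of 6 leukocyte markers, CD3E and FCGR3A had 0 counts throughout, PTPRC at most 1 count and CD14 at most 26.

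Levels are given in CPM, a gene's counts relative to its library's size after TMM scaling, and, to compare genes, in CPM per kilobase of exon. Most of the 40 genes were weakly expressed. In each library between 31 and 37 of them had at least 1 count, and together they took between 241 and 336 CPM, of which EIF2AK2, the gene of the double-stranded RNA-activated protein kinase R, alone supplied 63.7 to 148. EIF2AK2 was also the highest per kilobase (median 10.3), at the 76.2 percentile of the 19275 genes tested. Next in the medians per kilobase came USP18 (7.79), IFI6 (6.80), IFIT5 (6.30), ISG15 (5.05) and STAT2 (4.83). The ranges of these 5 genes over the libraries overlapped, and neighbours in this order did not differ beyond that spread. At the other end, 9 genes were too low to test. The 2′-5′-oligoadenylate synthetase genes OAS1 and OAS2 reached at most 1 and 2 counts in any library, the viperin gene RSAD2 3, IFI44 2, PARP14 2, XAF1 2, OASL 5 and SAMD9L 7. MX1, the gene of the dynamin-like GTPase MxA, reached 11. The other 31 passed the filter on low counts. It keeps genes with enough counts in at least as many libraries as the smallest group holds, whatever their group. Among those 31, BST2 (tetherin, at most 27 counts) and CMPK2 (at most 14 counts) were the least measured.

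**Figure D1:**
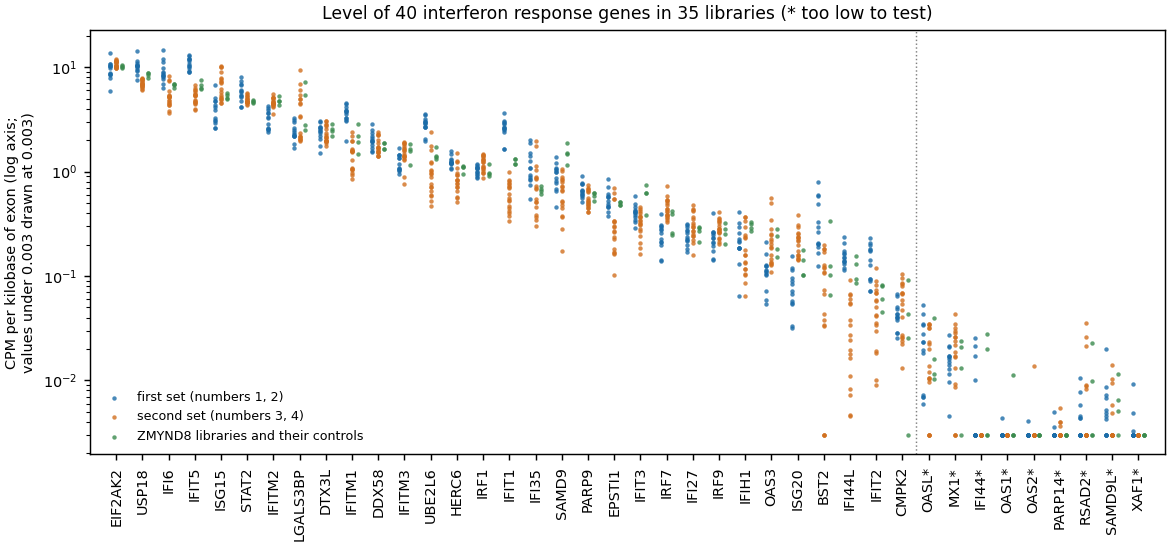
Level of each of the 40 genes in all 35 libraries, in CPM per kilobase of exon on a log axis, coloured by set; an asterisk marks the 9 genes too low to test. EIF2AK2 stands highest with a median of 10.3, and OAS1, OAS2, IFI44, PARP14 and XAF1 sit at the floor with at most 2 counts in any library.

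Across 14 comparisons of a depletion or of starvation (ZNF655 counted once, against controls 3a to 4b), 18 of the 31 tested genes were called at least once and 13 never (edgeR quasi-likelihood test, Benjamini-Hochberg adjusted p under 0.05 over 19275 genes). There were 43 calls in all. Of the 18, 12 were called higher at least once and 9 lower, IFI35, IFIH1 and SAMD9 in both directions. Comparisons with the same controls are not independent: INTS13, HDGF and ZNF655 share controls 3a to 4b, and the 5 targets of the first set share controls 1a, 1b and 2. In a bulk measurement, fewer cells with a transcript and less of it per cell cannot be told apart.

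After INTS13 depletion 6 of the 31 genes rose and 1 fell, where 6.53% of all genes tested rose and 6.23% fell. LGALS3BP, ISG20, SAMD9, OAS3, DTX3L and PARP9 rose and EPSTI1 fell. The median log2 fold change of the 31 was 0.28, against 0.01 for all genes. The 7 calls became 2 without INTS13 library 3, 1 without INTS13 library 4 and 4 without control 3b or 4a. Where 1 of a pair of libraries is left out, the other is assumed to vary as the other groups do, here and in all that follows. Leaving out a library can change how many of all genes are called, so such counts are not by themselves a result about these genes. After HDGF depletion LGALS3BP rose and EPSTI1 fell (1 and 1 of 31, against 1.89% higher and 2.6% lower of all genes; median 0.02), and the call of EPSTI1 was lost without HDGF library 3. After ZNF655 depletion 7 rose (LGALS3BP, IFI35, OAS3, UBE2L6, IFIH1, HERC6 and PARP9) and EPSTI1 fell, against 6.57% higher and 4.88% lower of all genes, with a median of 0.39. Without ZNF655 library 3 the 8 calls became 4. Against the controls labelled for ZMYND8, 5 rose (OAS3, LGALS3BP, IFI35, ISG20 and IRF7) and 2 fell (EPSTI1 and IFIT1), against 5.16% and 3.94%, with a median of 0.24. These 7 calls became 2 without control 3, 3 without control 4 and 4 without either ZNF655 library. ZMYND8 depletion raised LGALS3BP and lowered none, against 0.446% and 0.301% (median 0.12), a call lost without ZMYND8 library 4.

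In the first set at most 2 of the 31 genes were called in a comparison. TSPYL2 depletion lowered IFIT1 and IFITM2 and raised none, against 1.08% lower and 1.14% higher of all genes (median -0.05). ZEB1 depletion raised IFIH1 and lowered none (1.78% and 1.99%; median 0.25). ZNF608 depletion raised PARP9 and lowered IFITM2 (1.08% and 1.68%; median 0.13). ZNF609 depletion (0.192% higher and 0.379% lower of all genes; median 0.14) and ZNF687 depletion (0.0674% and 0.187%; median 0.09) gave 0 calls by edgeR among the 31, with 4 and 1 genes at an unadjusted p under 0.05 (1891 and 1751 of all 19275), and DESeq2 also called 0. The replicate numbers paired the libraries of this set. With the number as a block over all 35 libraries, TSPYL2 had 6 calls (3 higher and 3 lower), ZEB1 4, ZNF608 6, ZNF609 0 and ZNF687 1. The shares of all genes called in either direction were 18.3%, 13.6%, 8.65%, 2.23% and 1.17%. The counts for TSPYL2 and ZEB1 are near that background. With the block and this set's libraries alone they were 1, 0, 1, 0 and 0 of 30 (0.264%, 1.70%, 1.76%, 0.190% and 0.0370% of all genes). Without the libraries numbered 1, with no block, they were 4, 1, 3, 3 and 0 (17.1%, 3.44%, 9.12%, 14.2% and 2.18%). That choice leaves 1 library per depletion, whose spread is taken from the other groups. Leaving out either library of TSPYL2 or ZNF608 leaves 1 of that depletion, and calls were lost each time. Without TSPYL2 library 2 the log2 fold change was -0.73 for IFIT1 and -0.64 for IFITM2. Without ZNF608 library 1 it was 0.495 for PARP9 and -0.54 for IFITM2. Without control 1a or 1b the calls of TSPYL2 became 1, where 1.33% and 0.961% of all genes were called. For ZEB1 they became 10 without ZEB1 library 2 and 4 without control 1a, where 36.4% and 21.2% of all genes were called, so both counts lie below the background.

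Glucose starvation of control cells lowered 8 of the 31 genes (EPSTI1, IFIT1, IFI44L, IFIT5, IFIH1, IRF1, IFI35 and SAMD9) and raised ISG15, where 8.05% of all genes fell and 8.77% rose. The median of the 31 was -0.22, against 0.01 for all genes, and the 9 calls became 5 without starved control 4b and 6 without control 3a. In INTS13-depleted cells starvation lowered 3 (IFI44L, IFIT1 and EPSTI1) and raised none, against 0.467% and 0.856% of all genes (median -0.18), and in HDGF-depleted cells it lowered IFIT1 and raised none (1.45% and 2.09%; median -0.10). Without any 1 of their own libraries these calls became 0, or 1 without starved INTS13 library 3. Among starved cells, INTS13 depletion raised 5 (LGALS3BP, IFIH1, SAMD9, PARP9 and DDX58) and lowered none, against 2.32% and 1.54% (median 0.46), and the 5 calls became 0 without either INTS13 library, 2 without starved control 4a or 4b and 3 without starved control 3b. HDGF depletion raised LGALS3BP and SAMD9 and lowered none (0.265% and 0.394%; median -0.02), with 1 call left without either HDGF library or starved control 3a, 4a or 4b. The interaction, which asks whether a depletion acts differently in starved cells, gave 0 calls by edgeR and by DESeq2 among the 31 for INTS13 (0.0156% of all genes higher and 0% lower) and for HDGF (0% and 0%). At an unadjusted p under 0.05 there were 1 and 3 of the 31, and 1103 and 909 of all 19275 genes.

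**Figure D2:**
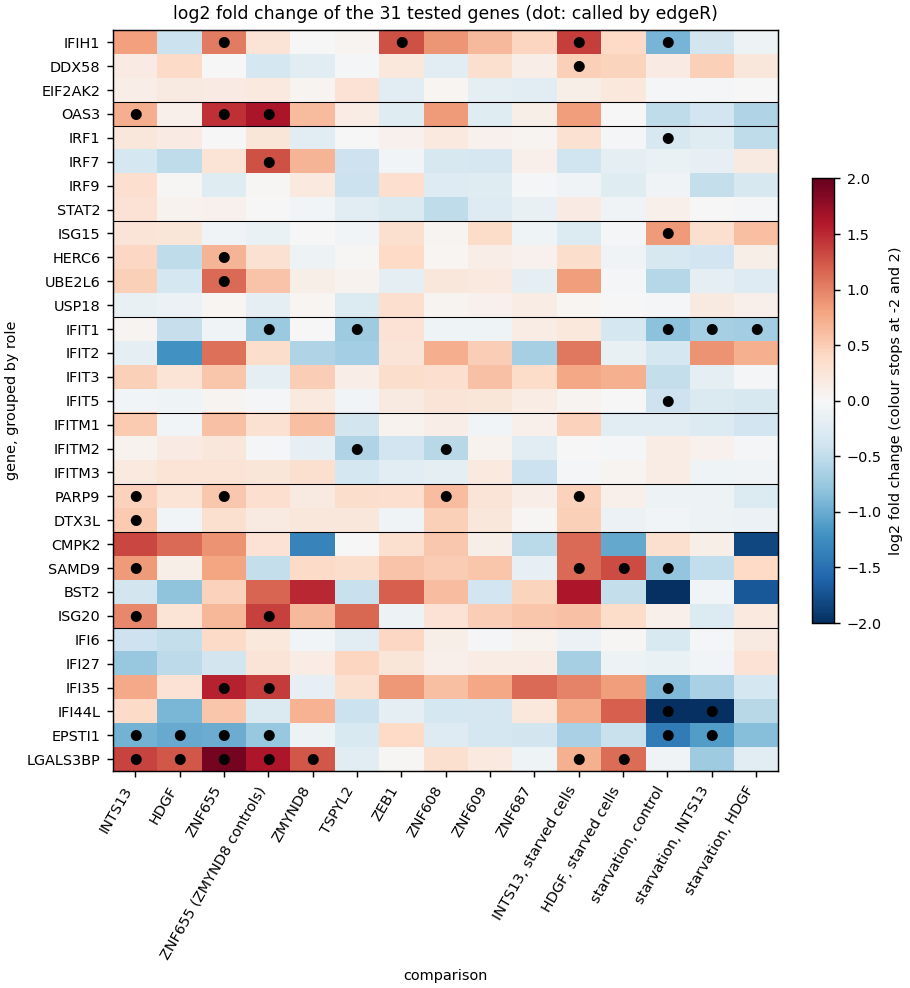
log2 fold change of the 31 tested genes (rows, by role) in the depletion and starvation comparisons (columns), red higher and blue lower, with a dot where edgeR called the gene. LGALS3BP has a dot in each column of INTS13, HDGF, ZNF655 and ZMYND8 depletion, and the starvation column of control cells holds 8 of its 9 dots on the blue side.

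LGALS3BP (ENSG00000108679, chromosome 17, 78971238 to 78979947, minus strand, hg38) encodes a secreted glycoprotein that binds galectins. It was at 7.06, 7.10, 7.56 and 8.08 CPM in the 4 controls of the second set. The INTS13 libraries stood at 17.2 and 20.7 CPM, the HDGF libraries at 16.8 and 18.5 and the ZNF655 libraries at 23.5 and 32.5. All 6 depleted libraries lay above all 4 controls. The log2 fold change was 1.35 ± 0.16 (SE) for INTS13 (adjusted p = 2.21e-06), 1.25 ± 0.16 for HDGF (1.85e-05) and 1.91 ± 0.16 for ZNF655 (1.18e-08). The ZMYND8 libraries had 18.5 and 24.8 CPM against 8.63 and 9.65 in their own controls (1.25 ± 0.20, adjusted p = 9.23e-04), and against those same controls ZNF655 depletion gave 1.62 ± 0.20 (8.62e-06). The ZMYND8 call was lost without ZMYND8 library 4 (adjusted p = 0.0712). The calls for INTS13, HDGF and ZNF655, the last against either control set, held with each library left out in turn.

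In the first set LGALS3BP stayed between 5.79 and 11.1 CPM and was not called (controls 7.49, 8.14 and 8.51). Starved controls (6.77, 6.87, 7.29 and 7.33 CPM) differed little from fed ones (log2 -0.08 ± 0.15, adjusted p = 0.789). Among starved cells the INTS13 libraries held 11.5 and 11.8 CPM (0.72 ± 0.17, adjusted p = 0.0144, lost without either INTS13 library, at 0.153 and 0.143). The HDGF libraries held 15.1 and 15.5 CPM (1.11 ± 0.17, adjusted p = 7.40e-04). LGALS3BP thus stood lower in starved than in fed INTS13-depleted cells, but neither that difference (-0.70 ± 0.19, adjusted p = 0.0659) nor the interaction (-0.63 ± 0.24, unadjusted p = 0.0151, adjusted p = 0.737) passed.

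**Figure D3:**
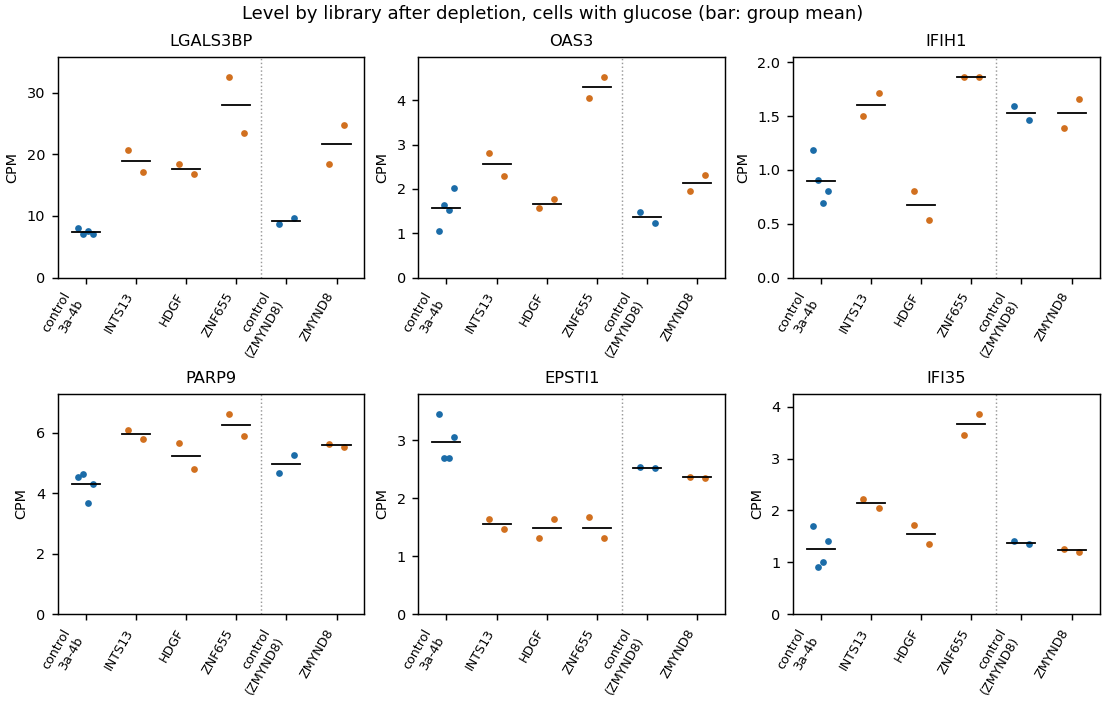
CPM of genes called after depletion of INTS13, HDGF, ZNF655 or ZMYND8, in each library (points) with group means (lines), beside controls 3a to 4b and the controls labelled for ZMYND8. LGALS3BP is at 16.8 CPM or more in all 8 depleted libraries and at 9.65 or less in the 6 controls.

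EPSTI1 (ENSG00000133106, chromosome 13, 42886388 to 42992271, minus strand), named for its induction by stroma in epithelial cells, moved the other way. Controls 3a to 4b had 2.69, 2.71, 3.07 and 3.46 CPM, the INTS13 libraries 1.47 and 1.64, the HDGF libraries 1.32 and 1.65 and the ZNF655 libraries 1.31 and 1.68. No depleted library reached the lowest control. Its log2 fold change was -0.94 ± 0.20 for INTS13 (adjusted p = 0.00234) and -1.01 ± 0.21 for HDGF (0.00335), and ZNF655 depletion brought the mean from 2.98 ± 0.364 (SD) to 1.49 ± 0.257 CPM (0.00157). These calls were lost without INTS13 library 4 (0.0505), HDGF library 3 (0.131) and ZNF655 library 4 (0.0517). Against the controls labelled for ZMYND8 (2.53 and 2.54 CPM) ZNF655 depletion gave -0.76 ± 0.24 (0.0417), lost without any 1 of the 4 libraries (0.065 to 0.243). ZMYND8 libraries (2.35 and 2.37 CPM) were not called (-0.10 ± 0.23, adjusted p = 0.977). Starvation took EPSTI1 in control cells to 0.805, 1.12, 1.17 and 1.44 CPM (-1.40 ± 0.17, adjusted p = 3.29e-06, held with each library left out). In starved INTS13-depleted cells it was at 0.502 and 0.893 CPM (-1.11 ± 0.28 against fed, adjusted p = 0.0430, lost without any 1 of the 4 libraries, at 0.0856 to 0.412).

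Among the sensors, IFIH1 (ENSG00000115267, chromosome 2, 162267074 to 162318684) encodes MDA5, which binds long double-stranded RNA. It was low, with 7 to 86 counts a library. It rose after ZEB1 depletion, to 1.51 and 2.10 CPM against 0.324, 0.942 and 0.947 in the controls (log2 1.27 ± 0.28, adjusted p = 0.0106). The lowest of these controls was 1a, the library with 13.3% of its counts on ribosomal protein genes, and without the libraries numbered 1, which leaves 1 ZEB1 library and the spread of the other groups, the adjusted p was 0.00948. With the replicate block in this set alone it was 0.0677. After ZNF655 depletion both libraries had 1.86 CPM, against 0.695 to 1.19 in controls 3a to 4b (1.03 ± 0.27, adjusted p = 0.0139, lost without either ZNF655 library, at 0.127 and 0.103). Against the controls labelled for ZMYND8, at 1.46 and 1.60 CPM, the same libraries differed by 0.28 ± 0.31 (adjusted p = 0.625). Starved controls held 0.327 to 0.593 CPM, below the fed ones (-0.93 ± 0.29, adjusted p = 0.0252). That call was lost without control 3a (0.101) or starved control 3a or 4b (0.0608 and 0.0873). In starved INTS13-depleted cells it was at 1.21 and 1.27 CPM (1.38 ± 0.33, adjusted p = 0.0145, lost without either INTS13 library, at 0.132 and 0.16).

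DDX58, the RIG-I gene, ranged only from 6.55 to 13.1 CPM. It was called in starved INTS13-depleted cells, at 10.5 and 11.2 CPM against 7.03 to 8.01 in starved controls (0.48 ± 0.14, adjusted p = 0.0465), and the call was lost without any 1 of the 6 libraries (0.0711 to 0.413). EIF2AK2, at 105 to 112 CPM in the 8 controls of the second set, was not called in a depletion or starvation comparison without the block, with log2 fold changes from -0.23 to 0.30. With the block over all libraries it was called after TSPYL2 depletion (0.34 ± 0.10, adjusted p = 0.0214). Of the oligoadenylate synthetases, which make the messenger that activates RNase L, only OAS3 had counts enough (ENSG00000111331, chromosome 12, 112938444 to 112973251). ZNF655 depletion took OAS3 to 4.06 and 4.52 CPM, above 1.05, 1.52, 1.65 and 2.02 in controls 3a to 4b (1.47 ± 0.23, adjusted p = 9.22e-05) and above 1.23 and 1.49 in the controls labelled for ZMYND8 (1.64 ± 0.29, adjusted p = 7.73e-04). Both calls held with each library left out. In INTS13-depleted cells OAS3 was at 2.28 and 2.82 CPM (0.72 ± 0.24, adjusted p = 0.0494). That call was lost without control 3a, 3b or 4a (0.142, 0.0722 and 0.0854) or either INTS13 library (0.433 and 0.114).

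Of 4 signalling factors, 1 (IRF1) was called in the 14 depletion and starvation comparisons. STAT2, a part of the interferon-activated factor, was at 26.7 to 35.2 CPM in the second set and 25.5 to 49.8 CPM over all libraries, with log2 fold changes from -0.50 to 0.28. With the block over all libraries it was called after ZNF608 depletion (-0.42 ± 0.10, adjusted p = 0.0103) and, in the set that is not paired, after INTS13 depletion (0.28 ± 0.10, 0.0381). IRF9, its DNA-binding partner, was at 0.515 to 1.47 CPM over all libraries and was not called. IRF1, a transcription factor of the family, fell in starved controls from 8.64, 10.0, 10.2 and 10.3 CPM to 7.54, 7.54, 7.93 and 8.19 (-0.33 ± 0.10, adjusted p = 0.0317). The call was lost without any 1 library but fed or starved control 4a (0.0591 to 0.0801). IRF7, which amplifies interferon production, was at 1.31 and 1.90 CPM after ZNF655 depletion. These values lay within or above the 1.14 to 1.52 of controls 3a to 4b (0.27 ± 0.26, adjusted p = 0.573) and above 0.652 and 0.673 in the controls labelled for ZMYND8 (1.27 ± 0.34, adjusted p = 0.0184, lost without ZNF655 library 3 or either control, at 0.111 to 0.216).

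ISG15 (ENSG00000187608, chromosome 1, 1001138 to 1014540) encodes the ubiquitin-like modifier of the response. It was called higher in starved controls, which held 6.28, 7.89, 8.69 and 8.89 CPM against 3.97, 4.34, 4.52 and 4.67 in fed ones (log2 0.86 ± 0.21, adjusted p = 0.00564). The call held with each library left out, and the groups did not overlap. In HDGF-depleted cells the values were 6.92 and 8.66 CPM starved and 4.21 and 6.15 fed (0.60 ± 0.30, adjusted p = 0.327). In INTS13-depleted cells they were 6.43 and 6.66 against 5.08 and 5.43 (0.32 ± 0.30, adjusted p = 0.731), and the interaction did not pass (-0.54 ± 0.36, adjusted p = 0.973). UBE2L6, the enzyme that conjugates ISG15, was at 3.65 and 4.95 CPM after ZNF655 depletion against 1.48 to 2.48 in controls 3a to 4b (1.14 ± 0.23, adjusted p = 0.00157). HERC6, a ligase of the HERC family, was at 7.33 and 8.75 CPM against 4.43 to 5.56 (0.68 ± 0.14, adjusted p = 0.00203). Both were lost without ZNF655 library 3 (0.111 and 0.135) and against the ZMYND8 controls (at 0.193 and 0.254). USP18, which removes ISG15 from proteins and damps receptor signalling, was not called in a depletion or starvation comparison without the block. With the block over all libraries it was called after TSPYL2 depletion (-0.31, adjusted p = 0.0368) and ZEB1 depletion (0.30, 0.0494). Its reads cannot be separated with certainty from those of a near-identical copy.

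The IFIT genes lie side by side on chromosome 10 and encode proteins that bind viral RNA. IFIT1 (ENSG00000185745, 89392546 to 89406487), IFIT2 and IFIT3 lie within the span of LIPA on the opposite strand (median 108 CPM), so reads of LIPA could enter their counts if strand was not used. LIPA itself was not called in any depletion or starvation comparison, and whether its reads entered these counts was not tested. In the second set fed controls had 3.22, 3.30, 3.53 and 4.56 CPM of IFIT1 and starved ones 1.87, 1.95, 2.05 and 2.39 (-0.81 ± 0.12, adjusted p = 4.24e-05, held with each library left out). Starved INTS13-depleted cells stood at 2.16 and 2.60 CPM against 3.75 and 3.83 fed (-0.66 ± 0.17, adjusted p = 0.0488), and starved HDGF-depleted cells at 1.55 and 1.74 against 2.45 and 2.85 (-0.69 ± 0.19, adjusted p = 0.0363). Starved libraries were below fed ones in all 3 cell groups, but the latter 2 calls were lost without any 1 of their 4 libraries (0.179 to 0.381 and 0.0964 to 0.316). IFIT5, the most abundant of the family, fell in starved controls from 21.6, 23.4, 24.6 and 25.4 to 15.8, 18.1, 18.6 and 18.8 CPM (-0.41 ± 0.11, adjusted p = 0.00914), and this held with each library left out. IFIT2, at 0.0369 to 0.952 CPM over all libraries, and IFIT3, at 0.411 to 1.89, were not called in any depletion or starvation comparison.

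TSPYL2 depletion brought IFIT1 to 7.53 and 7.66 CPM, below 12.0, 12.1 and 13.2 in its controls (-0.71 ± 0.13, adjusted p = 0.00550, 0.0420 with the replicate block in this set alone). The call was lost without TSPYL2 library 2 (0.115) and in a fit of this set alone with no block (0.607). ZNF655 depletion left IFIT1 at 3.35 and 3.57 CPM, close to controls 3a to 4b (-0.08 ± 0.14, adjusted p = 0.802). Against 5.50 and 6.09 CPM in the controls labelled for ZMYND8 it was lower (-0.75 ± 0.16, adjusted p = 0.00406, lost without 1 of those controls, number 3, at 0.0511). The IFITM proteins block entry of viruses at membranes. IFITM2 spans IFITM1 in the deposited annotation, with 1767 bases in common on 1 strand, so the counts of the pair are uncertain. IFITM2 fell to 3.74 and 3.95 CPM after TSPYL2 depletion and to 3.86 and 4.01 after ZNF608 depletion, against 5.10, 6.03 and 6.32 in controls (-0.59 ± 0.15, adjusted p = 0.0379, and -0.56 ± 0.15, 0.0381). Neither held without the libraries numbered 1 (0.0535 and 0.0747), with the block in this set alone (0.0760 and 0.0785), or without any 1 library but control 2 (0.0866 to 0.262 and 0.063 to 0.229). IFITM1 and IFITM3 were not called in any depletion or starvation comparison.

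**Figure D4:**
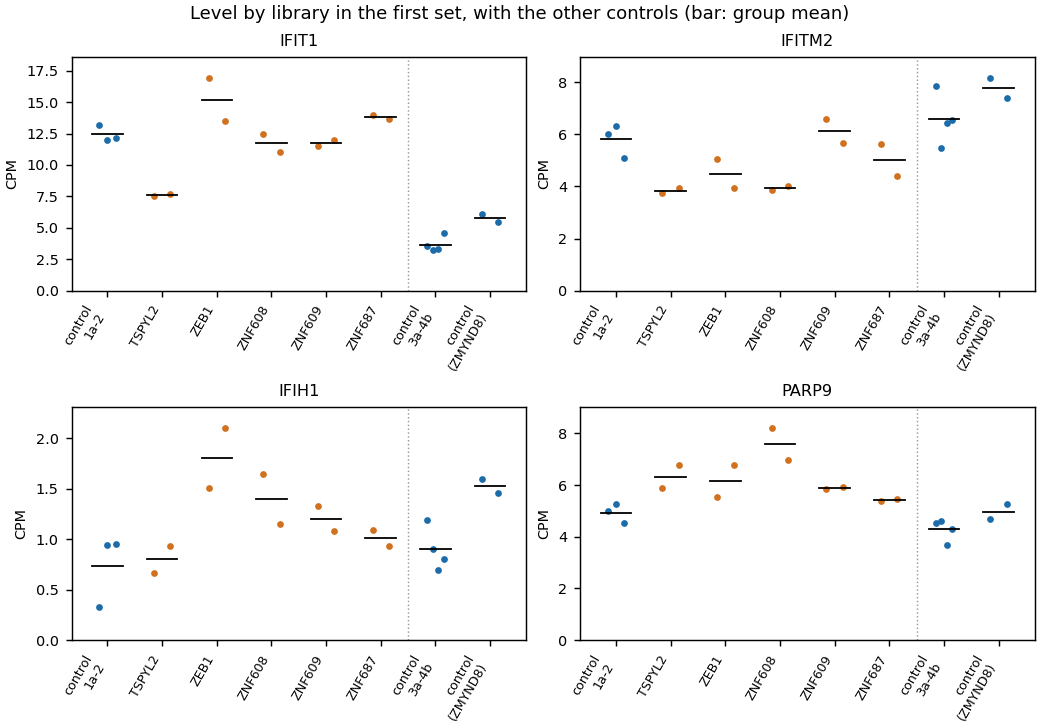
CPM of genes called after depletion of TSPYL2, ZEB1 or ZNF608 in each library of the first set, with group means as lines. IFIT1 is at 7.53 and 7.66 CPM in the TSPYL2 libraries and at 11.1 or more in all other libraries of the set, and IFITM2 is at 4.01 CPM or less in the TSPYL2 and ZNF608 libraries and in ZEB1 library 2; controls 3a to 4b and the controls labelled for ZMYND8 are drawn beside them.

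PARP9 and DTX3L, the divergent pair, encode an ADP-ribosyltransferase family member and the ubiquitin ligase it works with. After INTS13 depletion PARP9 was at 5.79 and 6.09 CPM against 3.69, 4.32, 4.55 and 4.63 in controls (0.47 ± 0.13, adjusted p = 0.0144), and DTX3L at 17.5 and 17.6 against 11.3, 11.3, 13.0 and 13.6 (0.52 ± 0.15, adjusted p = 0.0175). Both depleted libraries lay above all controls for each gene, and each call was lost without either INTS13 library (0.191 and 0.0896 for PARP9, 0.158 and 0.131 for DTX3L). PARP9 also rose after ZNF655 depletion, to 5.90 and 6.63 CPM (0.54 ± 0.13, adjusted p = 0.00517). That call was lost without ZNF655 library 3 (0.176) and with the ZMYND8-labelled controls as reference (0.34 ± 0.15, adjusted p = 0.159). ZNF608 depletion gave PARP9 values of 6.98 and 8.21 CPM against 4.54 to 5.26 (0.62 ± 0.13, adjusted p = 0.00496, 0.0373 with the block in this set alone, lost without ZNF608 library 1 at 0.14). DTX3L stood at 17.2 and 17.6 CPM there, above 10.2 to 14.7, but did not pass (0.47 ± 0.15, adjusted p = 0.0975). In starved INTS13-depleted cells PARP9 was at 4.95 and 6.18 CPM against 3.64 to 4.42 (0.46 ± 0.13, adjusted p = 0.0458), and the call was lost without any 1 library but starved control 3a (0.0574 to 0.663).

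Of the other effectors, SAMD9 (ENSG00000205413, chromosome 7, 93099513 to 93118023), which restricts poxviruses, was called in 4 depletion or starvation comparisons. Fed controls of the second set had 2.58, 3.25, 3.47 and 5.46 CPM and starved ones 1.20, 1.91, 2.55 and 3.05, so the groups overlapped although starvation was called (-0.78 ± 0.26, adjusted p = 0.0402). INTS13 depletion gave 6.12 and 7.30 CPM fed (0.85 ± 0.28, adjusted p = 0.0448) and 4.61 and 4.92 starved (1.14 ± 0.31, 0.0342), and HDGF depletion gave 4.95 and 5.64 starved (1.30 ± 0.31, 0.0401). Each depleted library was above its controls. Of these 4 calls none held with every library left out. For INTS13 in fed cells the call was lost without either INTS13 library (0.142 and 0.31) or control 3b, 4a or 4b (0.0875 to 0.121). In starved cells it was lost without either INTS13 library (0.287 and 0.174) or starved control 4a or 4b (0.11 and 0.0833). The HDGF call was lost without either HDGF library (0.312 and 0.251) or starved control 3a, 4a or 4b (0.0574 to 0.128), and that of starvation without control 3a, 3b or 4a or starved control 4a or 4b (0.0509 to 0.206). The controls labelled for ZMYND8 held 7.94 and 10.0 CPM of SAMD9, above all depleted libraries of the second set.

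ISG20 is an exonuclease of single-stranded RNA. In the TSPYL2 libraries it was at 0.812 and 1.11 CPM, against 0.227, 0.395 and 0.603 in controls 1a, 1b and 2. It was not called there without the block, nor with the block in the first set alone (1.37 ± 0.30, adjusted p = 0.0573). After INTS13 depletion ISG20 was at 1.84 and 2.77 CPM against 1.04 to 1.43 (0.96 ± 0.29, adjusted p = 0.0308). The call was lost without any 1 library but control 3a (0.0533 to 0.417). ZNF655 depletion gave 1.64 and 2.12 CPM, which passed against 0.725 and 0.729 in the controls labelled for ZMYND8 (1.37 ± 0.39, adjusted p = 0.0287, lost without any 1 of 4 libraries at 0.0775 to 0.199) but not against controls 3a to 4b (0.67 ± 0.30, 0.168). IFI35, which binds other interferon-induced proteins, rose after ZNF655 depletion to 3.46 and 3.86 CPM, against 0.902, 0.999, 1.41 and 1.70 in controls 3a to 4b (1.53 ± 0.28, adjusted p = 5.01e-04, held with each library left out) and 1.35 and 1.41 in the controls labelled for ZMYND8 (1.40 ± 0.34, 0.0109, lost without ZNF655 library 4 or either control at 0.0907 to 0.106). In starved controls IFI35 fell to between 0.593 and 0.747 CPM (-0.89 ± 0.30, adjusted p = 0.0391, lost without any 1 library but fed control 3b or 4a at 0.0636 to 0.15).

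IFI44L (ENSG00000137959, chromosome 1, 78619922 to 78646145), a gene widely used as a marker of the response, had few counts and the largest fold change among the calls. Fed controls of the second set had 8 to 20 counts a library and starved ones 1 to 3, or 52 and 7 in all. The starved level relative to the fed level was 0.150, with a 95% interval of 0.0573 to 0.330 that covers counting error only. The fitted log2 fold change was -2.67 ± 0.39 (adjusted p = 3.11e-05), and the call held with each library left out. Starved INTS13-depleted libraries had 2 and 4 counts against 15 and 20 fed, a ratio of 0.195 (0.0671 to 0.469; adjusted p = 0.0128, lost without either fed library or starved library 4, at 0.0651 to 0.347). In HDGF-depleted cells the ratio was 0.673 (0.242 to 1.75), on 8 counts against 13, and was not called. IFI6, at 3.06 to 12.5 CPM, IFI27, at 0.653 to 2.00, BST2 and CMPK2 were not called in any depletion or starvation comparison without the block.

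**Figure D5:**
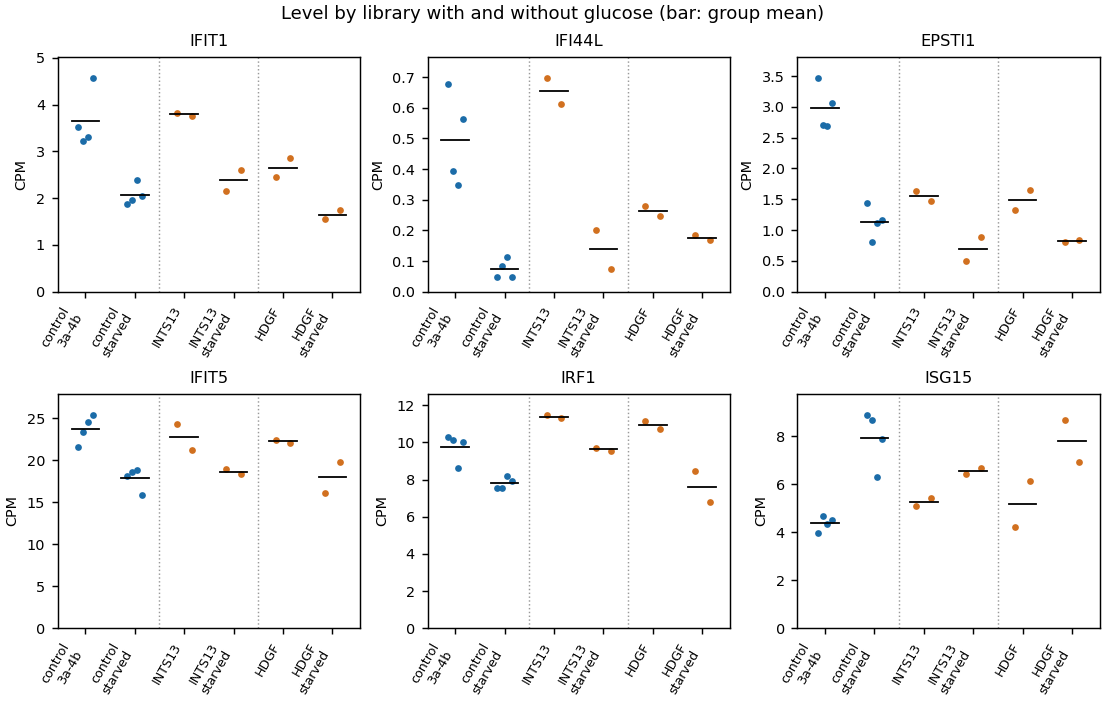
CPM of genes called in starved cells, in fed and starved libraries of control, INTS13-depleted and HDGF-depleted cells, with group means as lines. EPSTI1, IFIT1, IFIT5 and IFI44L are lower in all 4 starved controls than in any fed control, and ISG15 is higher.

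The control libraries of the 2 main sets differed at more of these genes than any depletion changed. The share of them called in either direction was near that of all genes. Controls 1a, 1b and 2 against controls 3a to 4b gave 11 higher and 5 lower of the 31 genes, where 24.7% of all genes were higher and 23.5% lower. IFIT1 was at 12.0 to 13.2 CPM in the former and 3.22 to 4.56 in the latter (1.77 ± 0.11, adjusted p = 1.99e-11). UBE2L6 was at 5.51 to 6.18 against 1.48 to 2.48 CPM (1.56 ± 0.20) and IFI44L at 1.43 to 2.10 against 0.347 to 0.679 (1.80 ± 0.23). ISG20 was at 0.227 to 0.603 against 1.04 to 1.43 (-1.46 ± 0.32). LIPA, on the strand opposite IFIT1, was higher too (0.95), and whether its reads added to IFIT1 was not tested. The 2 controls labelled for ZMYND8 differed from controls 3a to 4b at 2 higher genes (SAMD9 and IFIT1) and 1 lower (IRF7) of the 31, against 3.79% and 3.87% of all genes. The labels do not say what else differed between the sets, so set and any such difference cannot be told apart. Comparisons were kept within a set except for ZNF655, whose set no label names.

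Other genes of the pathway were followed in lists of ligands, receptors, sensors, further interferon-stimulated genes and targets of NF-kB. Calls in these lists were not checked with libraries left out. None of the 8 interferon genes listed, IFNB1 among them, had counts enough to be tested. Of 15 receptor and JAK-STAT genes, all tested, INTS13 depletion raised 3 (JAK2 by 0.48, IFNLR1 and IFNGR2 by 0.34 each, log2) and lowered none, where 6.53% of all genes rose. HDGF depletion raised IFNGR1 (0.65), 1 of the 15 against 1.89% of all genes. TSPYL2 depletion raised IFNAR2 (0.80), also 1 of the 15 (1.14% of all genes). ZNF655 depletion lowered IFNAR1, the receptor chain of type I interferon, from 92.8 to 63.3 CPM (-0.55 ± 0.08, adjusted p = 1.97e-05), and it was lower against the controls labelled for ZMYND8 too (-0.33 ± 0.09, 0.0167). No other gene of the 15 was lowered in either comparison, where 4.88% and 3.94% of all genes fell. Against the controls labelled for ZMYND8, 2 of the 15 rose, where 5.16% of all genes did. They were the inhibitor SOCS1 (2.63 ± 0.62, adjusted p = 0.00909), from 0.0924 to 0.570 CPM, and IFNAR2 (0.80 ± 0.17, 0.00480). The control mean of SOCS1 is below the level of 3 counts in those libraries (0.109 and 0.168 CPM). Against controls 3a to 4b, at 0.521 CPM, SOCS1 differed by 0.14 ± 0.37 (adjusted p = 0.870). Starvation of control cells lowered SOCS3, a feedback inhibitor, from 1.41 to 0.533 CPM (-1.44 ± 0.29) and raised TYK2 (0.30). That is 1 lower and 1 higher of the 15, where 8.05% of all genes fell and 8.77% rose.

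Of 16 sensing genes tested, ZNF655 depletion raised 2 and INTS13 depletion 2, and neither lowered any, where 6.57% and 6.53% of all genes rose. TLR3, the endosomal receptor for double-stranded RNA, rose from 0.0856 to 0.375 CPM after INTS13 depletion (2.05 ± 0.47, adjusted p = 0.00443) and to 0.608 after ZNF655 depletion (2.74 ± 0.43, 9.69e-05). The control mean is below the level of 3 counts in those libraries (0.102 to 0.130 CPM), so both fold changes rest on few counts. ZNF608 depletion raised TLR3 from 0.212 to 0.571 CPM (1.39 ± 0.35, 0.0274), 1 of the 16 against 1.08% of all genes. The kinase genes IKBKE (-0.73) and TBK1 (-0.48) and IRF3 (-0.24) fell in starved controls, where the list's median was 0.10 and 8.05% of all genes fell. MAVS was not called in any comparison.

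Of 34 further interferon-stimulated genes tested, INTS13 depletion raised 7 and lowered 1, HDGF depletion raised 3 and lowered 2, and ZNF655 depletion raised 12 and lowered none against controls 3a to 4b, or raised 5 and lowered 1 against the controls labelled for ZMYND8. The shares of all genes higher and lower were 6.53% and 6.23%, 1.89% and 2.6%, 6.57% and 4.88%, and 5.16% and 3.94%. The list's medians were 0.11, 0.09, 0.16 and 0.07. The peptide transporter gene TAP1 was at 25.3 and 23.2 CPM after INTS13 and HDGF depletion against 13.9 in controls (0.86 ± 0.10 and 0.74 ± 0.10). After INTS13 depletion TAP2 (0.91), its partner, and TRIM5 (0.98), a restriction factor for retroviruses, also rose. NLRC5, the activator of class I genes, rose from 1.60 to 5.03 CPM after ZNF655 depletion (1.65 ± 0.25, adjusted p = 5.70e-05; 1.89 ± 0.31 against the controls labelled for ZMYND8). SHFL (1.36), which blocks programmed frameshifting, and the immunoproteasome gene PSMB9 (1.30) followed against controls 3a to 4b. In starved controls 2 of the 34 fell and none rose, against 8.05% and 8.77% of all genes. Among starved cells INTS13 depletion raised 5 (2.32% of all genes), and HDGF depletion raised 2 and lowered 1 (0.265% and 0.394%). ZEB1 depletion raised 3 (1.78%), ZNF608 depletion 2 (1.08%), ZNF609 depletion 1 (0.192%) and ZMYND8 depletion 1 (0.446%). TSPYL2 depletion lowered 1 (1.08%). Of 13 NF-kB targets tested, the cytokine gene LIF rose from 0.894 to 6.89 CPM after INTS13 depletion (2.94 ± 0.18, adjusted p = 1.54e-11) and to 3.76 after ZNF655 depletion (2.07 ± 0.19, 4.10e-08). It was the only NF-kB target called after INTS13 depletion, and TNFAIP3 (0.59) was called beside it after ZNF655 depletion, where 6.53% and 6.57% of all genes rose. ZNF608 depletion, HDGF depletion and INTS13 depletion in starved cells raised 1 of the 13 each (1.08%, 1.89% and 2.32% of all genes). Starvation raised 1 and lowered 2 in control cells (8.77% and 8.05%) and lowered 1 in HDGF-depleted cells (1.45%).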

How the data were processed

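The authors deposited 1 table of raw counts per gene (60665 genes, 35 libraries), described in the table's name as taken before duplicate removal. FastQC, cutadapt and STAR on hg38 are named in the submitters' processing notes. The counting tool, annotation and strand setting are not given in the sources used here. Libraries held 16.8 to 50.8 M counts, and 37 of the genes are mitochondrial.

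The 40 genes and the other lists were chosen with earlier results of these data known. The text names each gene called in a depletion, starvation or interaction comparison, with at most 3 called genes per other list and comparison, and IRF3 and MAVS; some genes of the other lists are not reported here. Genes were filtered with filterByExpr (19275 tested, 31 of the 40), scaled by TMM and fitted once in edgeR 4.0.16 (R 4.3.3, glmQLFit and glmQLFTest) with 15 group means and no block (20 residual degrees of freedom; the biological coefficient of variation had a median of 0.123). Each comparison is a two-sided contrast, and calls have a Benjamini-Hochberg adjusted p under 0.05 over 19275 genes. SE and SD are given where stated. Alternatives were DESeq2 1.42.0 (Wald test, or its size factors in edgeR), other filters, each set alone, the replicate number as a block, the other ZNF655 controls and leaving out each library. Fits were also run on simulated counts with independent libraries. Those hold neither the pairing of the first set nor differences between sets, so they say nothing about either.

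Deviations of libraries numbered 1 and 2 in the first set correlated in 15 of 15 pairs of groups (r from 0.398 to 0.907 over 11515 genes), so the numbers pair that set. They did in 6 of 21 pairs in the second set, which is not paired. The descriptions number the first controls 1, 2 and 2, the titles 1, 1 and 2, and the former was used. Starved ZMYND8 libraries were not analysed here.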

Additional observations from a re-analysis of the deposited data

Results flagged for a closer look

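Of 62 gene and group combinations with 4 libraries (the fed and the starved controls of the second set), 1 held a library that stood apart from the other 3 of its group. DDX58 was at 7.032 CPM in starved control 4a, while the other starved controls held 7.888 to 8.008, a gap of 0.877 of the whole range. Chance alone marks about 1 in 20 such groups. Without that library the DDX58 difference between INTS13-depleted and control cells under starvation had an adjusted p of 0.12.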

How the results depend on the processing

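Of 69 calls of a gene in a comparison, control sets included, 27 held with each library left out and 26 under all settings run, and no called fold change turned its sign. The calls per comparison moved by over 1.5 times as follows. They are of 31 genes, but of 30 (first set) or 29 (second set) in fits of 1 set alone. With no filter they are of 40 and with the stricter filter of 28. The share of all genes called moved too. For INTS13 it was 22.4% with the block over all libraries and 30.1% in the fit of its set alone. In the fit of the first set alone it was 0.00529% for TSPYL2, 0.148% for ZEB1 and 0.0529% for ZNF608. With the replicate block over all 35 libraries, TSPYL2 went from 2 to 6, ZEB1 from 1 to 4, ZNF608 from 2 to 6, ZNF687 from 0 to 1, INTS13 from 7 to 12, HDGF from 2 to 5, INTS13 in starved cells from 5 to 9, starvation of INTS13-depleted cells from 3 to 5 and of HDGF-depleted cells from 1 to 2. The numbers do not pair the second set. For HDGF depletion and the comparisons with starved cells, the shares of all genes called with the block or in 1 set alone are not reported here. Their counts in those fits are therefore not by themselves a result about these genes. With the block in the first set alone TSPYL2 had 1, ZEB1 0 and ZNF608 1, and with the titles' numbering ZEB1 had 5, ZNF608 4 and ZNF687 1. In fits of each set alone TSPYL2, ZEB1 and ZNF608 had 0, INTS13 12, HDGF 5, starvation of INTS13-depleted cells 5, of HDGF-depleted cells 3, INTS13 in starved cells 9 and HDGF in starved cells 4. DESeq2's Wald test gave ZEB1 2 and ZNF608 4. With no filter ZEB1 had 3, ZNF608 1, ZNF687 1 and starvation of HDGF-depleted cells 0, which had 2 with a stricter filter or DESeq2's size factors. Without the libraries numbered 1, a choice made after seeing the data, TSPYL2 had 4 and ZNF609 3. The cause of these shifts was not tested.

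With each library left out in turn the calls ranged from 0 to 2 for TSPYL2, 1 to 10 for ZEB1, 0 to 2 for ZNF608, 1 to 7 for INTS13, 1 to 2 for HDGF, 4 to 9 for ZNF655 (2 to 4 against the controls labelled for ZMYND8) and 0 to 1 for ZMYND8. They ranged from 5 to 8 for starvation of control cells, 0 to 1 for INTS13-depleted cells and 0 to 0 for HDGF-depleted cells, and from 0 to 5 for INTS13 and 1 to 2 for HDGF in starved cells. Control sets gave 15 to 17 (the first against the second) and 0 to 4. ZNF609, ZNF687 and both interactions had 0 throughout. These ranges are given without the share of all genes called in each fit, so they are not by themselves a result about these genes. Genes under about 1 CPM rest on few counts, and a missing call there is not evidence of no change.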
